A study of Homo sapiens with 26 samples.

Results

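N6-methyladenosine (m6A) is an internal mark of messenger RNA. A writer complex built around METTL3 and METTL14 places it, the demethylases FTO and ALKBH5 can remove it, and readers with a YTH domain bind it and act on splicing, export, translation and decay of the marked RNA. The IGF2BP proteins, the subject of the study, have also been described as m6A readers, and readers of the YTHDF family are known to enter stress granules. The 10 genes described here were taken by name, with no measured value in the rule, although earlier results of these data were known. The list holds the writers METTL3, METTL14, WTAP and VIRMA, the erasers FTO and ALKBH5, and the readers YTHDF1, YTHDF2, YTHDF3 and YTHDC1. They are 10 of the 63086 genes in the count files, and all 10 were among the 9099 protein-coding genes with enough reads to be tested. RNA levels were measured, so the values say nothing of m6A itself or of the proteins.

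The cells were HCT116, a human colorectal carcinoma line, and the RNA was the poly(A) fraction of lysates cleared by centrifugation. In 24 libraries the cells carried the genotype IGF2BP2 KO, IGF2BP3 KO and Tet-OsTIR1-PURO, and expressed mCherry-IGF2BP1 from a lentivirus as WT, S181E, Y396E or RQ (R167Q, R168Q, R174Q and R178Q). S181E and RQ lie in linker 1 of IGF2BP1 and Y396E lies in linker 2. Each of these 4 populations was given 500 µM sodium arsenite, an inducer of oxidative stress, for 2 h, or PBS as control, with 3 libraries per group from dishes plated and grown apart. Another 2 libraries, 1 control and 1 arsenite, came from parental HCT116 cells and enter no test. The knockout cells had been sorted as single-cell clones before the lentivirus was added, and each mCherry population is 1 sorted population taken through a narrow gate, so the dishes of a group are replicates of that population and not of the mutation, and p-values measure the spread between dishes.

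Library totals ran from 22508145 to 50834401 counts. The third Y396E arsenite library had counts on 13897 genes, against at least 20850 in each of the other 25 libraries. Most changes of single genes among the 10 that rest on it are also given without it, while medians, ranks and correlations are not. The epithelial genes EPCAM, KRT8, KRT18 and KRT19 were counted at 309 CPM (reads scaled to library size) or more in every library, and CDX2 at 18.6 CPM or more. The intestinal genes VIL1 and LGALS4 reached 0.228 and 0.171 CPM at most, the leukocyte genes PTPRC and CD3E 0.025 and 0.0575 CPM and the endothelial genes PECAM1 and VWF 0.208 and 0.751 CPM, while the fibroblast gene COL1A1 lay between 6.55 and 11.5 CPM. IGF2BP1 was at 0.347 and 0.645 CPM in the parental libraries and between 10.6 and 48.0 CPM in the others. IGF2BP2 and IGF2BP3 RNA was still counted in all libraries, at 62.3 CPM or more, and a count over the whole gene does not check an edit made at 1 site. Protein-coding genes took 89.47% to 91.72% of counts in WT and RQ control libraries, 94.66% to 95.91% in those of S181E and Y396E, and 97.01% to 98.27% after arsenite, and the part of this shift in the results was not tested. The samples are bulk RNA, in which fewer cells carrying an RNA and less of it per cell cannot be told apart.

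In hg38 the writers METTL3 (ENSG00000165819), METTL14 (ENSG00000145388) and WTAP (ENSG00000146457) span chr14:21498138-21511340, chr4:118685392-118715430 and chr6:159725585-159756319. The erasers FTO (ENSG00000140718) and ALKBH5 (ENSG00000091542) span chr16:53701692-54153406 and chr17:18183078-18209954. The readers YTHDF1 (ENSG00000149658), YTHDF2 (ENSG00000198492) and YTHDC1 (ENSG00000083896) span chr20:63195429-63216139, chr1:28736621-28769775 and chr4:68310387-68350090. Values are counts over all exons of a gene, so isoforms were not told apart.

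The 10 genes spanned a wide range of levels. On a scale per length (FPKM, mean ± SD of 3 libraries), WT control cells held most ALKBH5 RNA (34.8 ± 1.40), then YTHDF2 (30.1 ± 1.18), YTHDF1 (25.7 ± 0.346) and WTAP (25.4 ± 1.02). METTL3 followed at 11 ± 0.568 FPKM and YTHDF3 at 8.64 ± 0.244, ahead of YTHDC1 at 4.78 ± 0.541, VIRMA at 4.18 ± 0.315, METTL14 at 2.55 ± 0.102 and FTO at 1.33 ± 0.146. YTHDF1 and WTAP overlapped in their library values, as did YTHDC1 and VIRMA, and the other neighbours in this order did not. Per length, the catalytic writer METTL3 therefore stood above its partner METTL14, with a ratio of 4.3 ± 0.38 in the WT control libraries. The lengths are those of all annotated exons (1980 bases for METTL3, 6642 for METTL14), which need not be those of the transcripts expressed. In CPM the same libraries held 20.5, 22.6 and 22.0 of METTL3 and 17.7, 16.6 and 16.5 of METTL14. Per length, the RNA of FTO was a small part of that of ALKBH5, at a ratio of 0.0381 ± 0.0039. Their exon lengths were 14598 and 3347 bases. In CPM the WT control libraries held 19.5, 17.2 and 21.4 of FTO and 112, 117 and 121 of ALKBH5.

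After arsenite the order in WT cells was YTHDF2 (56.3 ± 1.21 FPKM), YTHDF1 (29.7 ± 1.03), ALKBH5 (27.8 ± 1.82), WTAP (27.3 ± 0.356) and METTL3 (23.2 ± 0.501). YTHDC1 at 18.6 ± 0.982 FPKM came next, level with YTHDF3 at 17.7 ± 0.134, and VIRMA (9.42 ± 0.241), METTL14 (4.85 ± 0.134) and FTO (2.60 ± 0.132) closed the list as before. On this scale ALKBH5 thus passed from the highest level to one that overlapped those of YTHDF1 and WTAP.

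**Figure D1:**
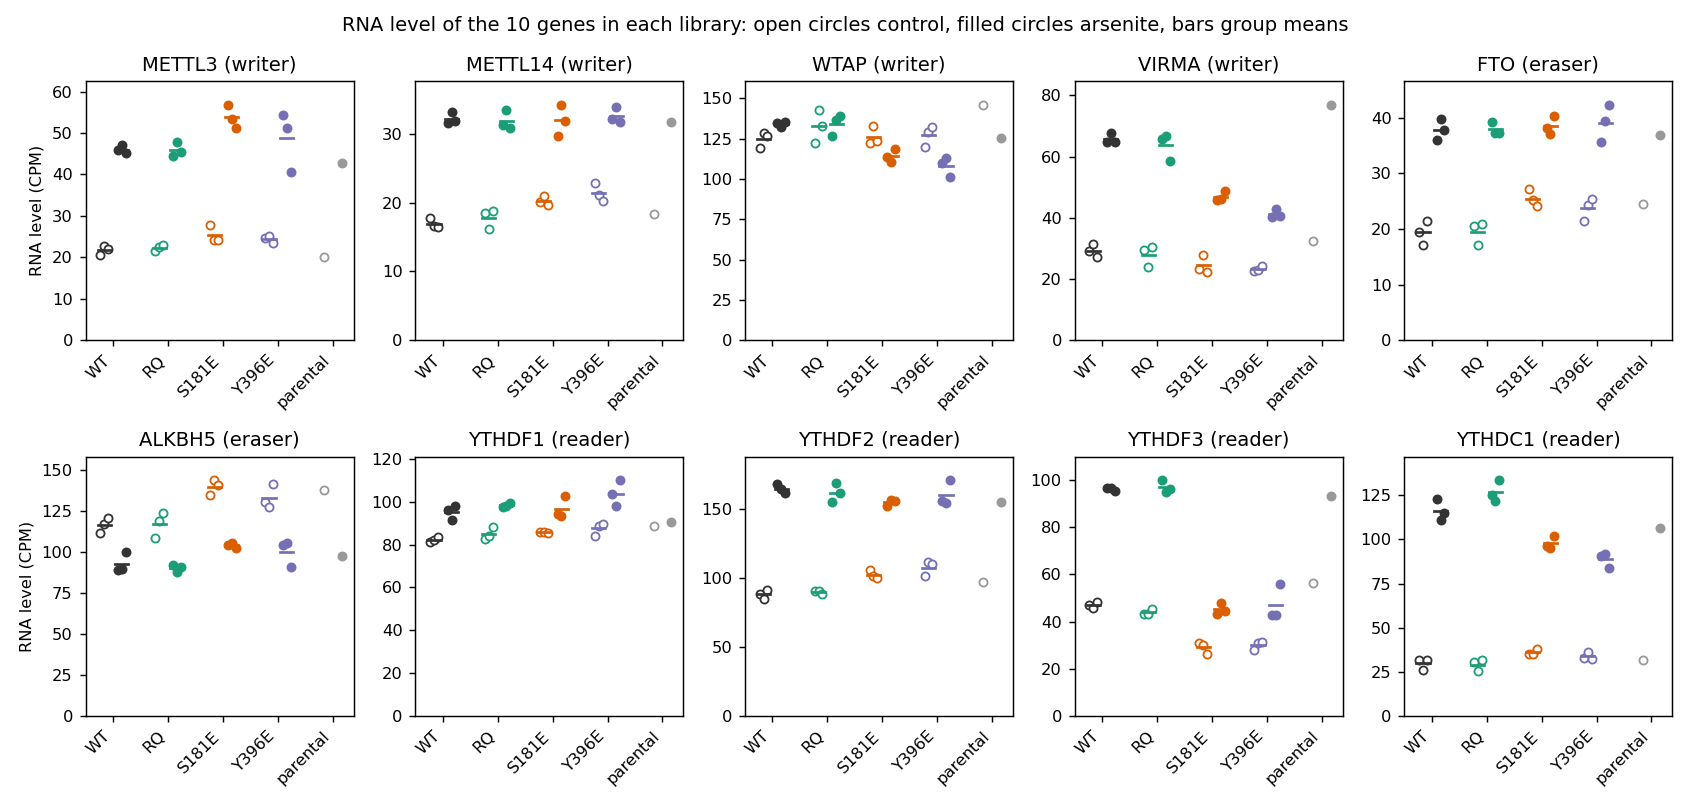
RNA level of each of the 10 genes in all 26 libraries, in CPM on axes that start at 0, by population (open circles control, filled circles arsenite, bars the mean of 3 libraries; the parental cells have 1 library each). YTHDC1 rose most in each mCherry population, ALKBH5 was lower with arsenite in CPM (on TPM, another scale, its WT and RQ means were slightly higher), and YTHDF3 and VIRMA lay lower in S181E and Y396E than in WT after arsenite.

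To ask how arsenite moved these RNAs, each population was compared with its own PBS control in edgeR (quasi-likelihood test, p-values adjusted after Benjamini and Hochberg over all 9099 genes). Calls required an adjusted p below 0.05 together with a change of more than 1.2-fold. In each of the 4 populations 8 of the 10 genes were called, 7 higher and 1 lower. Arsenite moved most of the transcriptome: WT and RQ had 72.2% and 72.9% of all tested genes called, and S181E and Y396E 65.3% and 65.8%, so a called gene was the rule. Calls toward higher RNA made up 36.3% (WT), 37.1% (RQ), 32% (S181E) and 32.9% (Y396E) of all tested genes. Scaling by library totals alone, an alternative used below, took the summed counts of the 9099 tested genes with no further factor. With library totals alone the share of calls that were higher moved from 50.3% to 61.6% (WT) and from 50.9% to 62% (RQ). The median log2 change of the 10 genes was 0.95 (WT), 0.90 (RQ), 0.62 (S181E) and 0.63 (Y396E), beside medians over all genes between -0.03 and -0.01. The genes share their libraries, so these counts and medians are a description.

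Of the writers, METTL3, METTL14 and VIRMA rose in every population and WTAP was not called in any. METTL3, the catalytic subunit, stood at 20.5, 22.6 and 22.0 CPM in the WT control libraries and at 45.8, 47.1 and 45.1 CPM with arsenite, a log2 change of 1.09 ± 0.08 (adjusted p = 1.42e-11). Its change was nearly the same size elsewhere, at 1.04 ± 0.08 (RQ), 1.09 ± 0.08 (S181E) and 1.00 ± 0.08 (Y396E). Control and arsenite libraries did not overlap in any population. The third Y396E arsenite library held less METTL3 (40.5 CPM) than the other two of its group (54.4 and 51.2), and without it the Y396E change was 1.11. Without that library the Y396E changes of the other genes stayed on their side of the thresholds, with 0.63 for METTL14, -0.19 for WTAP, 0.84 for VIRMA, 0.67 for FTO and -0.34 for ALKBH5. The readers then had 0.20 (YTHDF1), 0.53 (YTHDF2), 0.52 (YTHDF3) and 1.44 (YTHDC1).

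METTL14, the RNA-binding partner of METTL3 in the complex, went from 17.7, 16.6 and 16.5 to 31.6, 33.2 and 31.8 CPM in WT, a log2 change of 0.93 ± 0.07. It rose by 0.84 ± 0.07 (RQ), 0.66 ± 0.07 (S181E) and 0.61 ± 0.07 (Y396E). The arsenite libraries of all 4 populations lay between 29.7 and 34.3 CPM, whereas the control libraries ran from 16.2 to 22.8 CPM, highest in S181E and Y396E. After arsenite the 4 populations overlapped, while every S181E and Y396E control library was above every WT and RQ control library.

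WTAP, the adaptor that brings METTL3 and METTL14 to nuclear speckles, held 119, 128 and 127 CPM in WT control libraries and 135, 132 and 136 CPM with arsenite. The log2 change of 0.10 ± 0.06 was not called (adjusted p = 0.0975), nor was that of 0.02 ± 0.06 in RQ. In S181E the values were 122, 133 and 124 against 114, 110.5 and 119 CPM, and in Y396E 120.05, 129 and 132 against 109.8, 113 and 101 CPM. These differences of -0.14 ± 0.06 and -0.23 ± 0.06 had adjusted p-values of 0.0283 and 0.000717 but stayed under the fold threshold. WTAP was called lower in Y396E without the first control or the second arsenite library of that population (-0.27 each), and higher in WT with library totals alone (0.26). On TPM, a scale per length over protein-coding genes, S181E turned to 0.04. VIRMA, the large scaffold of the complex, went from 29.2, 31.5 and 27.1 to 64.9, 67.8 and 64.8 CPM in WT, a log2 change of 1.17 ± 0.08, and RQ, S181E and Y396E gave 1.19 ± 0.08, 0.94 ± 0.08 and 0.82 ± 0.08. METTL3 RNA relative to WTAP, a ratio within each library that no scaling can change, went in WT from 0.431 ± 0.0056 to 0.851 ± 0.030 (SD, n = 3).

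The erasers were called in opposite directions. FTO stood at 19.5, 17.2 and 21.4 CPM in WT control libraries and at 36.0, 39.9 and 37.9 CPM with arsenite, a log2 change of 0.97 ± 0.09 (adjusted p = 4.09e-10), and RQ, S181E and Y396E gave 0.95, 0.60 and 0.73, all called. ALKBH5 went from 112, 117 and 121 to 88.9, 90.0 and 99.97 CPM in WT, a log2 change of -0.32 ± 0.06 (adjusted p = 2.94e-05). It was the single member called lower, with -0.38 ± 0.06 (RQ), -0.43 ± 0.06 (S181E) and -0.41 ± 0.06 (Y396E), and in no population did control and arsenite libraries overlap. When libraries were scaled by their totals over the tested genes alone, the changes of -0.16 in WT and -0.21 in RQ were under the fold threshold. On TPM the direction turned in WT (0.090) and RQ (0.043), where that scale moved the median of all genes to 0.40 and 0.42, so the fall in these populations is relative to the other genes and depends on the scaling. In S181E and Y396E ALKBH5 stayed lower on TPM (-0.24 and -0.21). Within libraries, FTO per ALKBH5 was 0.0381 before and 0.0937 after arsenite in WT. The same ratio was 0.0383 and 0.0964 for RQ, 0.0418 and 0.0848 for S181E, and 0.0408 and 0.0903 for Y396E (0.0819 without the third arsenite library).

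Of the readers, YTHDC1, YTHDF2 and YTHDF3 rose in every population and YTHDF1 was not called. YTHDC1, the nuclear YTH reader that acts in splicing and export, had the largest change of the 10. It stood at 31.8, 26 and 31.9 CPM in the WT control libraries and at 123, 111 and 115 CPM after arsenite, 3.88-fold higher (log2 change 1.95 ± 0.08, adjusted p = 5.43e-17). In RQ it went from 30.3, 25.2 and 31.6 to 125, 122 and 134 CPM, 4.36-fold. The rise was smaller in the other two populations, a difference tested further on. In S181E it went from 34.9, 35.2 and 38.1 to 96.1, 95.2 and 102 CPM, 2.71-fold, and in Y396E from 32.8, 36.5 and 32.3 to 90.8, 91.9 and 84.0 CPM, 2.63-fold. The ratio of YTHDC1 to YTHDF1 within libraries was 0.186 ± 0.021 before and 0.625 ± 0.028 after arsenite in WT, and 0.198 ± 0.013 and 0.440 ± 0.046 in Y396E (SD, n = 3), or 0.465 after arsenite without the third library.

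The cytosolic YTHDF proteins did not move as a block at the RNA level. YTHDF2, which recruits the CCR4-NOT deadenylase to marked RNA, went from 88.3, 84.8 and 91.7 to 169, 165 and 162 CPM in WT, a log2 change of 0.90 ± 0.05, and RQ, S181E and Y396E gave 0.85, 0.60 and 0.58. YTHDF3 went from 46.9, 45.8 and 48.5 to 96.5, 96.7 and 95.4 CPM in WT, a log2 change of 1.03 ± 0.08, with 1.14, 0.64 and 0.65 in the same order for the mutants. YTHDF1, first described as a promoter of translation, held 81.2, 82.4 and 83.4 CPM before and 96.1, 91.7 and 98.2 CPM after arsenite in WT. Its differences of 0.21 ± 0.05, 0.21 ± 0.05, 0.18 ± 0.05 and 0.24 ± 0.05 had adjusted p-values up to 0.00205 but were under the fold threshold. With library totals alone YTHDF1 was called higher in WT (0.37), RQ (0.38) and Y396E (0.30), because that scaling moved the median of all genes in WT from -0.01 to 0.15. It was also called in Y396E without the second arsenite library (0.29). The change of YTHDF1 was therefore small, and its call depends on the scaling.

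**Figure D2:**
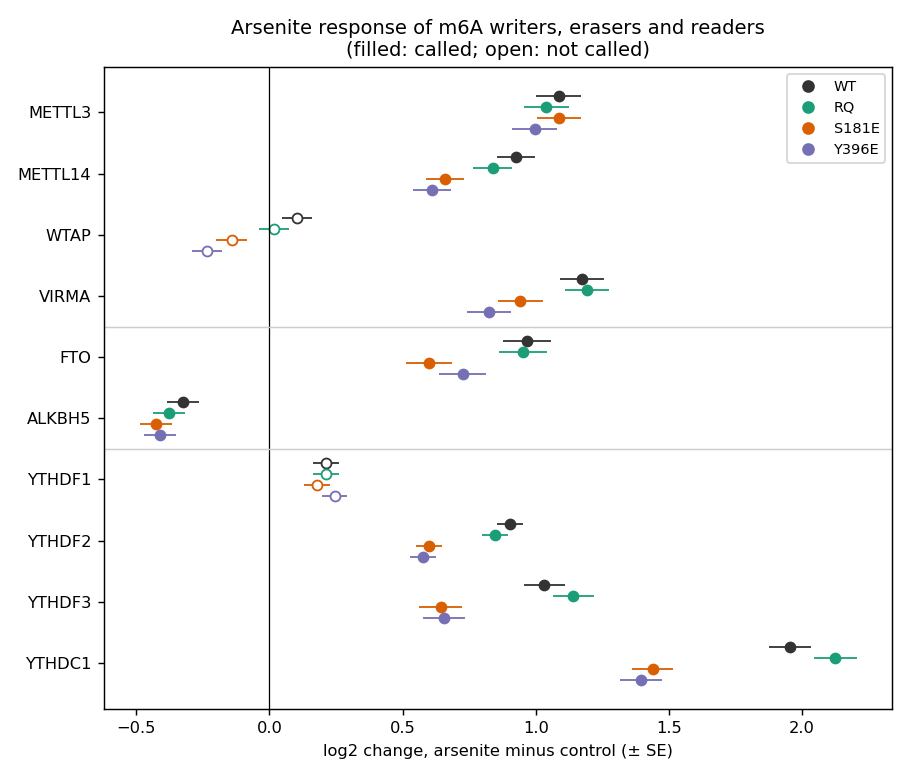
Log2 change from control to arsenite (x axis, ± SE) of each gene (y axis; writers, erasers and readers separated by lines) in the 4 mCherry populations, 3 libraries per group. Filled symbols were called, with YTHDC1 farthest right, ALKBH5 left of 0 (on TPM it would lie just right of 0 in WT and RQ), and WTAP and YTHDF1 open near 0.

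To show the DNA that lies next to the start of the genes, promoter windows were read from RefSeq (GRCh38.p14), which held 1 for each of 6 genes and 2, for alternative starts, for WTAP and for YTHDF2. VIRMA and YTHDF3 had none. The 250 bases before the start were searched on both strands for 8 short motifs. The cAMP response element, or CRE (TGACGTCA), was in the window of YTHDC1 alone, 97 bases before the start, and in 1.65% of 35116 windows. The CCAAT box (CCAAT) was in METTL14, WTAP and YTHDF2 and in 32.01% of windows, and the ETS core (CCGGAA) in METTL3 and METTL14 and in 14.53%. The GC box (GGGCGG) was in ALKBH5, WTAP, YTHDC1, YTHDF1 and YTHDF2 and in 42.64%, the heat shock element core (GAANNTTC) in METTL3 and YTHDF2 and in 5.78%, and the antioxidant response element core (TGACNNNGC) in YTHDF1 and YTHDF2 and in 10.91%. The E-box (CACGTG) was in YTHDF1 and in 6.34%, and the AP-1 site (TGANTCA) was in none of the 8 and in 6.57%. For WTAP and YTHDF2 a motif is named when either of the 2 windows held it, while the percentages are per window. In YTHDF2 the CCAAT box was in one window and the heat shock and antioxidant cores were in the other. A match of letters is a description of the window and no sign of a bound factor. The 120 bases before the start are shown 5′ to 3′ on the strand of the gene for YTHDC1 (chr4:68350091-68350210, minus strand), which rose most, for the core writers METTL3 (chr14:21511341-21511460, minus strand) and METTL14 (chr4:118685272-118685391, plus strand), and for ALKBH5 (chr17:18183708-18183827, plus strand), which was called lower. Capitals mark the CRE, the CCAAT box and the ETS core on either strand, and in METTL14 a CCAAT box and an ETS core overlap. ALKBH5 holds none of these 3 in the stretch shown.
YTHDC1: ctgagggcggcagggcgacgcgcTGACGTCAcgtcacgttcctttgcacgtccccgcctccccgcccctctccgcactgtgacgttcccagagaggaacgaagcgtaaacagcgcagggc
METTL3: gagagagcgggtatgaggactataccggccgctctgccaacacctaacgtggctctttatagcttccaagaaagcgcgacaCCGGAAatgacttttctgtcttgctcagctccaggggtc
METTL14: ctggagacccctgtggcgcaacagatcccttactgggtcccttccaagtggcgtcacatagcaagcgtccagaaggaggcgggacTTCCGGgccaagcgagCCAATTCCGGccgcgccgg
ALKBH5: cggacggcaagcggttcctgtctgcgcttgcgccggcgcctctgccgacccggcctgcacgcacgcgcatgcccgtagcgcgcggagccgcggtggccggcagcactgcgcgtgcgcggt

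The next question was whether the mutations of IGF2BP1 went with other levels of these RNAs. None of the 10 genes was called between RQ and WT in control cells, where 1.43% of all tested genes were called, or after arsenite, where 1.52% were. The 95% confidence intervals of all 10 differences lay between -0.26 and 0.23 (log2) in control and between -0.21 and 0.28 after arsenite, which leaves room for differences of up to about the fold threshold. At an unadjusted p under 0.05, 1285 and 1020 of the 9099 genes passed in the 2 comparisons. With library totals alone the share of RQ calls that were higher moved from 70% to 38.3% in control and from 89.9% to 77.7% after arsenite.

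In control cells S181E and Y396E both differed from WT, with 31.1% and 28.6% of all tested genes called. Among the 10 genes 4 were called in S181E, 3 higher and 1 lower, and 5 in Y396E, 3 higher and 2 lower. The largest difference was that of YTHDF3, which held 30.7, 30.0 and 26.3 CPM in S181E and 28.0, 30.8 and 31.2 CPM in Y396E against 46.9, 45.8 and 48.5 CPM in WT. Its log2 difference was -0.70 ± 0.08 in S181E (adjusted p = 1.78e-07) and -0.65 ± 0.08 in Y396E (adjusted p = 6.87e-07), with no overlap between groups. VIRMA at 22.5, 23.1 and 24.1 CPM was called lower in Y396E (-0.33 ± 0.09), and not with library totals alone (-0.20, adjusted p = 0.071). In S181E it held 23.4, 27.8 and 22.4 CPM, a difference of -0.26 ± 0.09 that had an adjusted p of 0.016 and was just under the fold threshold, and on TPM it turned to 0.05. VIRMA was called there without the second S181E control library, the highest of its group (-0.35), and without the third WT control library (-0.31). It was also called with scaling from genes off chromosome 8 (-0.27) and with only the groups compared in the fit (-0.28).

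Higher in the mutants at rest were FTO, ALKBH5, YTHDC1, METTL14 and YTHDF2, each by a small step. FTO stood at 27.2, 25.2 and 24.1 CPM in S181E and 21.4, 24.2 and 25.5 CPM in Y396E, above WT by 0.39 ± 0.09 and 0.29 ± 0.09, with the lowest Y396E library at the level of the highest WT library. ALKBH5 at 135, 144 and 141 CPM was called in S181E (0.27 ± 0.06), and its Y396E difference of 0.19 ± 0.06 was not. METTL14 (0.33 ± 0.07) and YTHDF2 (0.29 ± 0.05) were called in Y396E, with differences of 0.26 and 0.22 that missed the fold threshold in S181E, and YTHDC1 was called in S181E (0.27 ± 0.08) with 0.17 in Y396E (adjusted p = 0.0856).

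Most of these small calls rest near the threshold. ALKBH5 in S181E was lost without the first WT control, the second S181E control or the third S181E control library and with 5 other settings (0.23 to 0.26). Without the second WT control library YTHDC1 in S181E was at 0.18 and FTO in Y396E at 0.21, and neither was called. The same held for YTHDC1 without the third S181E control library (0.22) and for FTO without the third Y396E control library (0.23). YTHDC1 in S181E also lost its call with scaling from genes off chromosome 8 (0.255) and with only the groups compared in the fit (0.25). METTL14 in S181E was called without the first WT control (0.29) or the third S181E control library (0.27). YTHDF2 in Y396E lost its call without the second WT control library or without the second Y396E control library (0.26 each). With library totals alone the share of all calls that were higher moved from 50.4% to 83.6% (S181E) and from 50.5% to 81.1% (Y396E). On TPM the median of all genes moved to 0.32 (S181E) and 0.25 (Y396E). With library totals METTL3, METTL14 and YTHDF2 were also called higher in S181E (0.38, 0.41 and 0.37), and METTL3, ALKBH5 and YTHDC1 in Y396E (0.30, 0.32 and 0.30). The share of counts on protein-coding genes also set these populations apart, at 94.66% to 95.91% in the S181E and Y396E control libraries and 89.47% to 91.72% in those of WT and RQ, and its part was not tested.

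After arsenite all calls among the 10 genes were lower. In S181E 2 of the 10 genes were called, beside 13.7% of all genes, and in Y396E 4, beside 21.7%. With library totals alone the share of all S181E calls that were higher moved from 38.7% to 55.9%. YTHDF3 stood at 43.1, 47.9 and 44.6 CPM in S181E and 42.8, 42.9 and 56.0 CPM in Y396E against 96.5, 96.7 and 95.4 CPM in WT, log2 differences of -1.09 ± 0.08 and -1.03 ± 0.08. The third Y396E arsenite library was the highest of its group, and without it the Y396E difference was -1.17. VIRMA held 45.9, 46.1 and 48.8 and 40.2, 42.8 and 40.4 CPM in S181E and Y396E against 64.9, 67.8 and 64.8 CPM in WT, log2 differences of -0.49 ± 0.08 and -0.68 ± 0.08. For both genes every mutant library lay below every WT library. Without the third Y396E library the VIRMA difference was -0.66.

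WTAP and YTHDC1 were called lower in Y396E and not in S181E. WTAP stood at 109.8, 113 and 101 CPM there, a log2 difference of -0.31 ± 0.06 (-0.26 without the third library), and its -0.23 ± 0.06 in S181E (adjusted p = 0.0045) was under the fold threshold. YTHDC1 differed by -0.39 ± 0.07 in Y396E (-0.34 without the third library) and by -0.25 ± 0.07 in S181E (adjusted p = 0.0159), again under the fold threshold. YTHDC1 was called in S181E without the second WT arsenite or the third S181E arsenite library (-0.28 each). The test between Y396E and S181E, given further on, called neither gene. FTO, METTL14 and YTHDF2, which lay above WT at rest, showed differences between -0.09 and 0.05 from WT after arsenite, and none was called (between -0.09 and 0.04 for Y396E without the third library). METTL3 differed by 0.22 ± 0.08 in S181E (adjusted p = 0.0442) and by 0.08 in Y396E, or 0.20 without the third library, and was called in neither, although library totals alone gave a call in S181E (0.27).

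**Figure D3:**
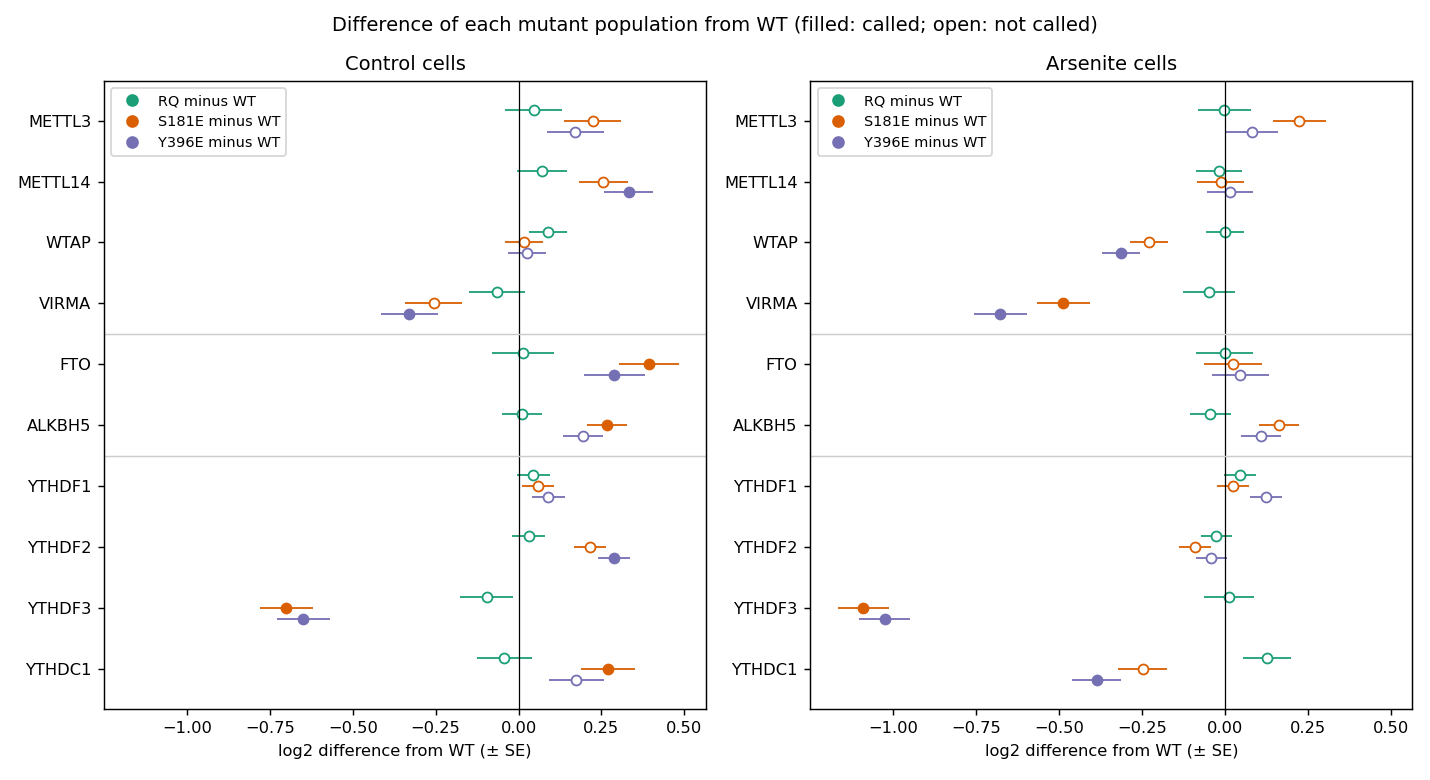
Log2 difference from WT (x axis, ± SE) of each gene (y axis) in RQ, S181E and Y396E, in control cells on the left and after arsenite on the right, 3 libraries per group. Filled symbols were called: YTHDF3 lies far left in S181E and Y396E on both sides, and the filled symbols right of 0 appear in control cells alone.

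Since the control and arsenite comparisons share their design, the difference of the arsenite response from that of WT was tested as an interaction. No member was called for RQ, where 0.22% of all genes were called and 333 of the 9099 had an unadjusted p under 0.05. Intervals of the 10 RQ differences lay between -0.30 and 0.40. In S181E 4 of the 10 genes were called, with 16.4% of all genes called, and in Y396E 6, with 21.5%. All of these calls were toward a smaller rise or a fall, a direction that 9.41% of all genes took in S181E and 11.1% in Y396E. The median difference of the 10 genes was -0.26 in S181E and -0.32 in Y396E, beside -0.03 and -0.02 over all genes. With arsenite in WT 36.3% of all genes were called higher and 35.9% lower, whereas 7 of the 10 members were called higher and 1 lower. A median over all genes thus mixes rising and falling genes. The share called downward among genes that rose in WT was not counted, so these values do not set the members apart from such genes. Both comparisons use the same WT libraries and are not independent of each other.

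YTHDC1 had the largest difference of response, at -0.52 ± 0.11 in S181E (adjusted p = 0.00306) and -0.56 ± 0.11 in Y396E (adjusted p = 0.00119). The 3.88-fold rise in WT thus stood beside 2.71-fold and 2.63-fold in the mutants. YTHDF2 (-0.31 ± 0.07 and -0.33 ± 0.07) and YTHDF3 (-0.39 ± 0.11 and -0.38 ± 0.11) were also called in both. FTO was called in S181E (-0.37 ± 0.13, adjusted p = 0.0414) and METTL14 (-0.32 ± 0.10), WTAP (-0.34 ± 0.08) and VIRMA (-0.35 ± 0.12) in Y396E. In the other mutant these genes lay on the same side and were not called. FTO had -0.24 ± 0.13 in Y396E, and METTL14 -0.27 ± 0.10, WTAP -0.25 ± 0.08 and VIRMA -0.23 ± 0.12 in S181E. The responses of S181E and Y396E were not tested against each other. METTL3 showed differences of 0.00 ± 0.12 and -0.09 ± 0.12, with an interval of -0.24 to 0.25 in S181E, ALKBH5 of -0.10 and -0.09, and YTHDF1 of -0.03 and 0.03. Without the third Y396E arsenite library the Y396E values of METTL3, ALKBH5 and YTHDF1 were 0.03, -0.02 and -0.01, and none was called. On TPM the median response difference of all genes was -0.26 (S181E) and -0.23 (Y396E), with -0.23 for METTL3 in S181E and -0.17 for YTHDF1 in Y396E.

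The calls differ in how firmly they stand. YTHDC1 and YTHDF2 kept theirs in both mutants when any 1 library was left out. FTO in S181E lost its call in 9 of the 24 such fits (adjusted p up to 0.142), those without the first or second WT control, second or the third WT arsenite, first or second S181E control, first or second S181E arsenite or second RQ arsenite library. VIRMA in Y396E lost it in 7 (up to 0.0843), those without the first or the third WT control, first or second WT arsenite, second or the third Y396E control or first Y396E arsenite library. METTL14 in Y396E lost it without the second WT control, the second WT arsenite or the first Y396E control library, and YTHDF3 without the second WT control or first S181E control library in S181E and without the third Y396E control library in Y396E (adjusted p between 0.050 and 0.067 in these fits). With only the groups compared in the fit, METTL14 and YTHDF3 in Y396E lost their calls (adjusted p = 0.0765 and 0.0748 by edgeR), and with no filter on low counts METTL14 in Y396E and FTO in S181E did (0.0628 and 0.0843). In S181E, WTAP was called without the first S181E control, second WT control or the third S181E arsenite library (-0.27 each), and METTL14 without the second S181E arsenite (-0.32) or the third Y396E arsenite library (-0.27). Without the third Y396E arsenite library FTO was also called in Y396E (-0.30), and the called differences there were -0.51 (YTHDC1), -0.37 (YTHDF2), -0.51 (YTHDF3), -0.29 (METTL14), -0.29 (WTAP) and -0.33 (VIRMA). With library totals alone 7 of the 10 genes were called in S181E, and the share of all calls that were higher moved from 42.6% to 13% there and from 48.1% to 18.2% for Y396E.

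Y396E and S181E were then compared with each other. No member was called in control or after arsenite, and 0% of all genes were called in either case (0 of 9099 by edgeR, against 1 and 10 by DESeq2, and 289 and 1375 at an unadjusted p under 0.05). The intervals of the 10 differences ran from -0.29 to 0.23 in control and from -0.36 to 0.23 after arsenite. VIRMA had the lowest value, -0.19 ± 0.08 after arsenite (adjusted p = 0.298), or -0.18 without the third Y396E library. METTL3 had -0.14 ± 0.08 and YTHDC1 -0.14 ± 0.07, which were -0.03 and -0.10 without that library. For VIRMA and YTHDC1 the arsenite libraries of the populations did not overlap, and the test called neither. The share of all 9099 genes without such overlap was not counted, so this is a description only. Without the second Y396E arsenite library 692 of the 9099 genes were called in the arsenite comparison, none of the 10 among them.

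VIRMA and YTHDF3 lie on chromosome 8, and the genes around them were also lower in S181E and Y396E. That they lie in a lowered stretch in these populations was already known when the genes were listed, so the values here describe it and are no independent finding. VIRMA spans chr8:94487689-94553529 and YTHDF3 chr8:63168553-63212786 (hg38). Over all 322 tested genes of chromosome 8 control cells had a median log2 difference from WT of -0.42 (S181E) and -0.41 (Y396E), and arsenite cells of -0.44 and -0.45, beside medians from -0.0021 to 0.026 over the 8777 genes elsewhere. In RQ the chromosome 8 medians were 0.02 in both treatments.

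All 20 nearest tested neighbours of YTHDF3, 10 on either side, lay below WT in both mutants and both treatments. Their median difference in control was -0.92 in S181E and -0.90 in Y396E, where YTHDF3 itself was at -0.70 and -0.65, ranks 14 and 17 of 21 from the lowest. After arsenite their medians were -0.88 and -0.97 and YTHDF3 was at -1.09 and -1.03, ranks 5 and 7. The nearest on either side, GGH and ARMC1, differed by -1.14 and -0.64 in S181E control cells. The lower YTHDF3 level of control cells was thus no lower than that of most genes around it.

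VIRMA showed the same setting with smaller values. Its 20 neighbours were all below WT, with control medians of -0.43 in S181E and -0.48 in Y396E beside -0.26 and -0.33 for VIRMA, ranks 19 and 15 of 21. After arsenite both medians were -0.48, and VIRMA was at -0.49 and -0.68, ranks 11 and 3. Its nearest tested neighbours RAD54B and ESRP1 differed by -0.36 and -0.39 in S181E control cells. The difference of the arsenite response had medians of 0.01 and 0.03 over these 20 neighbours in S181E and Y396E. VIRMA had -0.23 and -0.35, ranks 4 and 2 of 21 from the lowest. ESRP1 was called in both, at -0.37 and -0.36, and RAD54B in neither, at -0.07 and -0.18. For the neighbours of YTHDF3 these medians were -0.06 and -0.12, where YTHDF3 had -0.39 and -0.38, ranks 1 and 4 of 21 from the lowest. DNA was not measured.

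**Figure D4:**
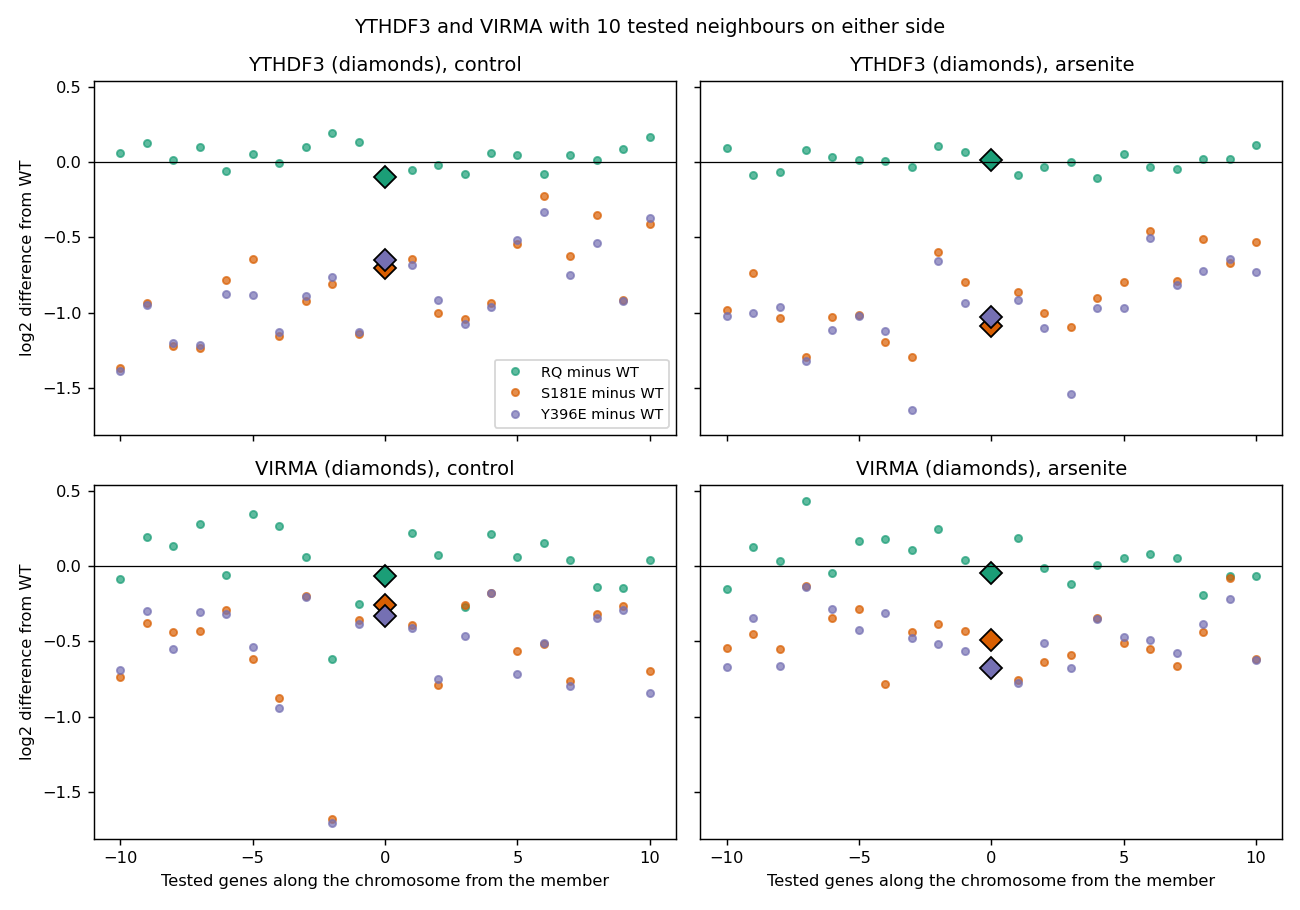
Log2 difference from WT (y axis) of YTHDF3 (top) and VIRMA (bottom), drawn as diamonds at 0, and of the 10 nearest tested genes on either side, drawn as dots in gene order (x axis), in control and arsenite cells. S181E and Y396E lie below 0 for all genes shown, while RQ scatters around 0.

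The balance within the YTHDF family followed from these values. As a share of the summed YTHDF1, YTHDF2 and YTHDF3 levels per length, YTHDF3 took 13.4% ± 0.05 (SD, n = 3) in WT control cells and 17.0% ± 0.24 after arsenite, and 12.4% ± 0.23 and 17.2% ± 0.78 in RQ. In S181E it took 7.94% ± 0.49 and 9.09% ± 0.48, and in Y396E 7.92% ± 0.12 and 9.02% ± 0.84, or 8.54% after arsenite without the third library. Every S181E and Y396E library was below every WT and RQ library in this share. YTHDF2 held the largest share in all groups, from 46.7% in WT control to 57.9% in S181E arsenite cells. The share of YTHDF1 was lower with arsenite in all 4 populations. It was 39.9% and 28.7% in WT and 39.3% and 33.8% for Y396E (34.1% after arsenite without the third library). These shares do not depend on the scaling between libraries.

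**Figure D5:**
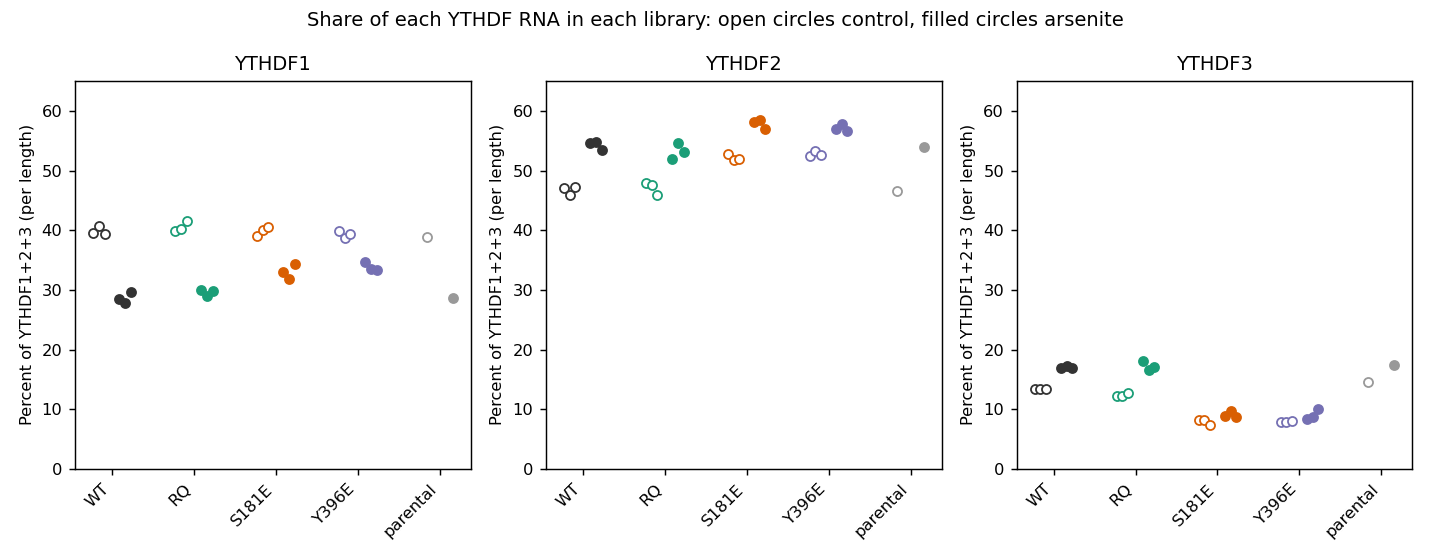
Share of YTHDF1, YTHDF2 and YTHDF3 in their summed level per length (y axis, percent, from 0) in each of the 26 libraries, by population (open circles control, filled circles arsenite). YTHDF3 stays under 10% in all S181E and Y396E libraries and over 12% in the others.

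The 2 parental libraries, which carry no mCherry-IGF2BP1, give single values for the same genes. YTHDC1 stood at 31.5 CPM in control and 106 CPM with arsenite, VIRMA at 32.3 and 77.0 CPM, and METTL3 at 20.1 and 42.7 CPM. YTHDF3 was at 56.5 and 93.2 CPM, a share of 14.6% and 17.4% of the YTHDF sum, which is on the side of WT and RQ. ALKBH5 was lower with arsenite (138 against 97.8 CPM), and so was WTAP (146 against 125 CPM). YTHDF2 (97.0 and 156), METTL14 (18.4 and 31.7), FTO (24.6 and 37.0) and YTHDF1 (88.7 and 90.6) complete the set, in CPM without and with arsenite. With 1 library each these differences have no replicate check.

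Across the 24 mCherry libraries the 10 genes fell into patterns that can be described by the correlation of their log2 CPM, in which groups, treatments and library properties are shared. METTL14 and YTHDF2 were most alike (r = 0.976), followed by FTO and YTHDF2 (r = 0.972), and VIRMA and ALKBH5 most opposed (r = -0.903). METTL3 and METTL14 had r = 0.959, while WTAP had values between -0.35 and 0.30 with the others. Among all tested genes those most like YTHDC1 were EIF3A, RBM26 and PYGL (r = 0.996, 0.996 and 0.995). Those most like VIRMA were ATAD2, NUDCD1 and INTS8 (0.984, 0.983 and 0.977), all on chromosome 8, as were 17 of the 50 nearest. For YTHDF3 they were TCF7L2, ATP6V1H and TGS1 (0.990, 0.984 and 0.982), with 28 of the 50 nearest on chromosome 8.

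A wider list of 25 genes around m6A was read in the same way: other subunits of the writer complex, other adenosine methyltransferases, other readers and the enzymes of the methyl donor. All 25 were tested. With arsenite 18 were called in WT and in RQ, 14 higher and 4 lower, and 17 in S181E and in Y396E, 12 and 11 of them higher. These are shares of 72% and 68%, near the shares of all tested genes called, 72.2% (WT), 72.9% (RQ), 65.3% (S181E) and 65.8% (Y396E). RBM15, the writer subunit that guides the complex to its targets, rose by 2.12 ± 0.08 in WT, and RQ, S181E and Y396E gave 2.22, 1.57 and 1.53. Its paralog RBM15B moved the other way, falling in all 4 populations (-0.66 ± 0.05 in WT and -0.48 in Y396E). ZC3H13, another subunit, rose by 1.49 ± 0.06 in WT, and METTL5, which methylates ribosomal RNA, had -0.42 ± 0.07. METTL16, the enzyme that methylates U6 RNA, fell by 0.50 in S181E and by 0.46 in Y396E on the log2 scale. IGF2BP1, whose reads come from transgene and endogenous gene together, rose by 1.27 in WT and 1.71 in RQ.

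Between populations the wider list moved less. In control 10 of 25 were called in S181E and 9 in Y396E, all higher, beside 31.1% and 28.6% of all genes called and 15.7% and 14.5% called higher. Among them were RBM15 (0.45 ± 0.08 and 0.49 ± 0.08), IGF2BP1 (0.63 in S181E) and IGF2BP3 (0.48 in Y396E). None was called in RQ in control. After arsenite IGF2BP1 was called higher in RQ (0.69 ± 0.09), S181E (0.57 ± 0.09) and Y396E (0.57 ± 0.09), at 29.6, 27.9 and 30.0 CPM in WT against 42.3 to 48.0 CPM in the mutants. TRMT112, the partner of METTL5, was the other call in Y396E (0.31). IGF2BP1 RNA thus differed between the populations, and its part in the differences of the 10 genes was not tested. The response differed from WT for 5 genes in each of S181E and Y396E, all downward, with RBM15 (-0.55 ± 0.11 and -0.58 ± 0.11) and RBMX (-0.45 ± 0.09 and -0.56 ± 0.09) largest, and for none in RQ. Of all genes 16.4% (S181E) and 21.5% (Y396E) were called, and 9.41% and 11.1% were called downward. Here too the downward share among genes that rose in WT was not counted.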

How the data were processed

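RNA-seq counts of 26 libraries were analysed. Per the labels and the file headers, the authors aligned reads to hg38 with STAR 2.7.11b and counted reads per gene with featureCounts (Subread 2.0.6, strand setting 2, GENCODE release 46), and the deposited values are raw whole-number counts. RNA pelleted from the lysates was not sampled. Immunoprecipitated libraries were not analysed here.

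Symbols came from GENCODE release 44 (62541 of 63086 identifiers, 99.14%). No member shares exon sequence with another gene on the same strand, and METTL3, WTAP, ALKBH5 and YTHDF2 overlap exons of genes on the opposite strand, which stranded counting keeps apart. Protein-coding genes over 10 CPM in at least 12 of the 24 mCherry libraries were kept. One edgeR 4.0.16 fit (R 4.3.3; TMM factors 0.865 to 1.09, 16 residual degrees of freedom) held 8 group means, and 15 contrasts were tested by the quasi-likelihood F-test with Benjamini-Hochberg adjustment over 9099 genes. SE is the size of the log2 change divided by the square root of F. CPM and FPKM used TMM-scaled totals of the 9099 tested genes, and FPKM also used the gene lengths in the files. Members had 400 to 7934 counts per library. The fits were tested on simulated counts with known changes of 1.5-fold or more for WT arsenite against control, and every changed gene was called. Changes between 1.2-fold and 1.5-fold, and differences of response, were not simulated. The simulation gave every gene the same spread and changed a small part of the genes, as many up as down. It therefore does not check the scaling or the spread of these data.

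All members were named, with IGF2BP1, IGF2BP2, IGF2BP3 and, per comparison, the 2 largest calls in each direction of the wider list, the nearest neighbours and the 3 genes most like YTHDC1, VIRMA and YTHDF3. The members and lists were chosen with earlier results of these data known. Replicates differed by more than sampling noise (chi-square per gene 2.67 to 60.1). Replicate numbers come from the labels, which name no shared batch. Same-numbered RQ and WT libraries deviated together (r = 0.29 to 0.53 in control and 0.147 to 0.150 after arsenite), a hint of pairing from the data. Other scalings, filters, thresholds, DESeq2 1.42.0, a replicate block and fits without each library were the alternatives, to which log2 ratios of group means in TPM, with no test, were added after seeing the data.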

Additional observations from a re-analysis of the deposited data

Results flagged for a closer look

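The results below were set apart because the arsenite response in a mutant population differed from that in WT by the interaction test of edgeR. YTHDC1 differed by -0.52 in S181E and -0.56 in Y396E on the log2 scale, YTHDF2 by -0.31 and -0.33, and YTHDF3 by -0.39 and -0.38. FTO differed by -0.37 in S181E, and METTL14 (-0.32), WTAP (-0.34) and VIRMA (-0.35) differed in Y396E. Values in the other mutant were not called but near these, at -0.24 for FTO in Y396E and -0.27, -0.25 and -0.23 for METTL14, WTAP and VIRMA in S181E. Of the wider list, RBM15 differed by -0.55 in S181E and -0.58 in Y396E, and RBMX by -0.45 and -0.56. The S181E and Y396E values share the WT libraries, and no member was called for its response in RQ.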

How the results depend on the processing

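Of 150 member results, each a gene in a comparison, 57 were called. Over the 11 other settings 1578 values stayed on their side of the threshold, 39 lost a call, 33 gained one and 0 were reversed. Fits without 1 of the 24 libraries gave 3554, 31, 15 and 0. The numbers of called members moved most with the fold threshold. Without a fold threshold they were 8 for S181E in control and 5 for S181E after arsenite. At 1.5-fold they were 1 for S181E and 1 for Y396E in control, 1 and 2 after arsenite, and 0 and 0 for the responses. Library totals alone gave 7 for S181E in control and 7 for its response. Without 1 library the Y396E control number ranged from 3 (without the second WT control library) to 5. The replicate block changed no call among the members, with 4 called for S181E and 5 for Y396E in control. Outside RQ and WT no comparison had r above 0.1 for all 3 same-numbered pairs, although single pairs reached 0.421 (the third Y396E and WT control libraries). The median over all 84 same-numbered pairs, RQ and WT included, was 0.054. With 5 or 20 genes on either side the neighbour medians of YTHDF3 and VIRMA in S181E and Y396E against WT stayed below 0, in control and after arsenite, while that of the S181E response around VIRMA was -0.01 and 0.05 (0.01 with 10) and that of the Y396E response -0.03 and 0.03 (0.03). Changes on TPM over protein-coding genes, a scale chosen for changes after seeing the data and given with no test, reversed 2 called values, ALKBH5 with arsenite in WT (0.090) and RQ (0.043), and turned the sign of 19 values that were not called. They moved the median of all genes with arsenite to 0.40 (WT), 0.42 (RQ), 0.15 (S181E) and 0.18 (Y396E). With 3 dishes per group of 1 population each, the mutation and the population cannot be told apart. Over all 9099 genes, the calls with no fold threshold and with 1.5-fold were 4300 and 478 (2831 at 1.2-fold) for S181E in control, 4019 and 417 (2606) for Y396E in control, 2096 and 262 (1250) and 3194 and 354 (1972) after arsenite. Fits on only the groups compared gave 1122 calls against 1972 for Y396E after arsenite and 948 against 1954 for the Y396E response. Without the second WT control library the responses had 746 against 1491 (S181E) and 1159 against 1954 (Y396E) calls. At 1.5-fold, arsenite moved 3831 (WT, 6565 at 1.2-fold), 4012 (RQ, 6631), 2775 (S181E, 5944) and 2882 (Y396E, 5991) genes and the responses 108 and 224. For RQ the counts over fits without 1 library ran from 74 to 263 in control (130), from 70 to 218 after arsenite (138) and from 8 to 38 for the response (20), each highest without the third Y396E arsenite library.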
